A study of Mus musculus with 8 samples.

Results

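The genes described here are mitosis and spindle genes, which drive entry into mitosis, attachment of chromosomes to the spindle, their separation and the division of the cell. They were taken from a list of 47 genes by symbol, and 46 of them were measured through an array row that names a single gene, out of 19938 genes measured in all. Cyclin B1 (Ccnb1) had no such row and was not analysed here. Of the 46 genes, 45 had 1 row, and Top2a had 2, of which the brighter was used. The rule names genes by symbol and uses a measured value only to pick the brighter row.

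Transcript levels came from 8 samples of mouse colonic tumors, each on 1 Affymetrix array, as log2 signals. Of these, 3 were tumors of the distal colon induced with azoxymethane (AOM, a colon carcinogen) in mice of the genotype K-rasG12Dint, here K-rasG12D AOM. Another 2 were AOM-induced distal tumors of LSL-K-rasG12D/+ mice, here LSL AOM, whose titles carry the term wt. A lox-stop-lox (LSL) element blocks expression of the allele behind it unless a recombinase has cut it out. The last 3 were serrated tumors of the proximal colon in mice of the genotype K-rasG12Dint/Ink4a/Arf-/-. Ink4a/Arf is the Cdkn2a gene, which encodes brakes on the cell cycle, and the titles of these tumors do not name AOM. K-rasG12D appears in the genotype of all 3 groups. What drives the allele, and how old the mice were, was not given in the sources used here. Tumor type, colon segment, Ink4a/Arf genotype and AOM went together, so in every comparison with the serrated group they cannot be told apart. The K-ras label also differed between serrated (K-rasG12Dint) and LSL AOM tumors (LSL-K-rasG12D/+). Against LSL AOM tumors, and in part against all AOM tumors, it is a further difference that cannot be told apart from these. No normal colon was measured.

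Array medians over genes ran from 4.17 to 4.31. The standard deviation (SD) over genes was 1.77 on serrated array 1 and at least 2.00 on the other 7 arrays. Cdkn2a read 4.01, 3.79 and 3.37 on the serrated arrays, 5.39, 6.21 and 5.95 on the K-rasG12D AOM arrays, and 3.59 and 4.28 on the LSL AOM arrays. It is not known if the probes cover the part that was deleted, so these levels do not check the labels. Cdkn2a fell in serrated against all AOM tumors (-1.17 ± 0.25, limma adjusted p = 0.0247), and not without K-rasG12D array 2 or 3, serrated array 2 or LSL array 2 (0.0537 to 0.0894). The epithelial genes Epcam, Cdh1 and Krt8 read between 9.86 and 12.09 on all 8 arrays.

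In a dividing cell, cyclin-dependent kinase 1 with cyclins A and B starts mitosis, and Polo-like and Aurora kinases build the spindle. The kinetochore ties each chromosome to spindle fibres, and the spindle checkpoint holds back the anaphase-promoting complex, which degrades securin and cyclin B, until all chromosomes are attached. Transcripts of these genes are low in resting cells and peak in G2 and mitosis. In normal colon, dividing cells sit in the lower crypt, and mature surface cells do not divide. In such samples, fewer dividing cells and less RNA per dividing cell cannot be told apart.

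Many of these genes are known to share promoter elements. The cell cycle genes homology region (CHR) recruits the MuvB core of the DREAM complex, which represses in resting cells, and of the B-Myb and FoxM1 complexes, which activate in G2 and mitosis. CCAAT boxes bind the activator NF-Y. Promoter windows from 250 bases before to 50 after a transcript start were taken from RefSeq on the build GRCm38.p6, and 37 of the 46 genes matched, with 39 windows. Both strands were searched for the CHR as TTTGAA or TTCGAA and for the CCAAT box as CCAAT. In the members' windows 1 CHR match overlapped a CCAAT match. A CHR match stood in 31 of the 39 windows (79.5%), against 19.2% of all 32851 windows in the table and 17.6% of those of protein-coding genes. A CCAAT match stood in 29 windows (74.4%), against 37.4% of all windows, and both stood in 28 windows (71.8%), against 7.52%. Among 88 windows of other mitosis genes 52.3% held a CHR match, and among 46 windows of G1/S and DNA replication genes 23.9% did.

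The 6 promoters shown are of 3 genes called lower in serrated tumors (Cdk1, Cdc20 and Top2a), of the checkpoint genes Bub1 and Mad2l1, which stood among the largest differences, and of Mki67, which hardly differed. They were chosen after their values were seen, and each runs 5′ to 3′ from 230 bases before the start through the first 30 bases of the transcript. Capitals mark CHR and CCAAT matches on either strand, so an element may also appear as its reverse complement, as ATTGG does for the CCAAT box. Cdk1 lies at chr10:69352883-69353142 on the minus strand, Cdc20 at chr4:118437314-118437573 (minus), Bub1 at chr2:127831830-127832089 (minus), Top2a at chr11:99024160-99024419 (minus), Mad2l1 at chr6:66534991-66535250 (plus) and Mki67 at chr7:135716350-135716609 (minus).
Cdk1: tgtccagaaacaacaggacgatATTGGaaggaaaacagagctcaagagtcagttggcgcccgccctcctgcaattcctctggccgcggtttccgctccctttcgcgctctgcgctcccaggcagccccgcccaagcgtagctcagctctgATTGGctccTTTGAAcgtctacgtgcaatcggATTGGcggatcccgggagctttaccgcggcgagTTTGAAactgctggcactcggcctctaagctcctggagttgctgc
Cdc20: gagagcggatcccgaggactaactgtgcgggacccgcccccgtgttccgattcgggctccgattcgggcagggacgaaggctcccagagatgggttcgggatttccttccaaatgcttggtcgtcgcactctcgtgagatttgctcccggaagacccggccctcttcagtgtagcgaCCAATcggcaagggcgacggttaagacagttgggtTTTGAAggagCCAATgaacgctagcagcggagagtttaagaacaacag
Bub1: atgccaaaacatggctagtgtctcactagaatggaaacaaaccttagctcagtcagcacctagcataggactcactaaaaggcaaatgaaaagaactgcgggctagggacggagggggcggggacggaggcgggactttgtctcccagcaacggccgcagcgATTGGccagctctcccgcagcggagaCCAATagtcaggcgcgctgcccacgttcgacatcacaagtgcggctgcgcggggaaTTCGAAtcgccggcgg
Top2a: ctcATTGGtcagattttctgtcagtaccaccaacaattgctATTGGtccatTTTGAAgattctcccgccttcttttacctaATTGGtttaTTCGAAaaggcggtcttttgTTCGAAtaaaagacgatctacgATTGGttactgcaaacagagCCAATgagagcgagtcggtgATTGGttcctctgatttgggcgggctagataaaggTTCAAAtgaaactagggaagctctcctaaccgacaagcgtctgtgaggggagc
Mad2l1: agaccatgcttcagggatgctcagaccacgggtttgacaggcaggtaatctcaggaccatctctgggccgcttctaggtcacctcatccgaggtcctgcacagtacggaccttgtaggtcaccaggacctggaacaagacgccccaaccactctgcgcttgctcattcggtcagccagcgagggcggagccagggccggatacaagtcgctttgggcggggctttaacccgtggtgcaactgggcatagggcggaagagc
Mki67: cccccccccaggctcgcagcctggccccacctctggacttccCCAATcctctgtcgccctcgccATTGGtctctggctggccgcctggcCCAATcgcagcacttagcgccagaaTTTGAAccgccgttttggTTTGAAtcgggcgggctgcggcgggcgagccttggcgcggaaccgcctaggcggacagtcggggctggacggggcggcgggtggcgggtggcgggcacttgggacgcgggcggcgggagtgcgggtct
Cdk1 and Cdc20 each held a CHR close to the start, at -15 and -18 bases. The Top2a window held 4 CHR and 6 CCAAT matches, the most of both together among the members. Mad2l1 held neither element, and neither did Birc5, Melk, Ncaph, Nuf2, Nusap1 and Pttg1. Only starts with a window were searched. Some windows, such as those of Pttg1 and Kif2c, lay wholly inside the gene, so another start of these genes was not examined. A match is a run of letters, and binding was not measured here.

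**Figure D1:**
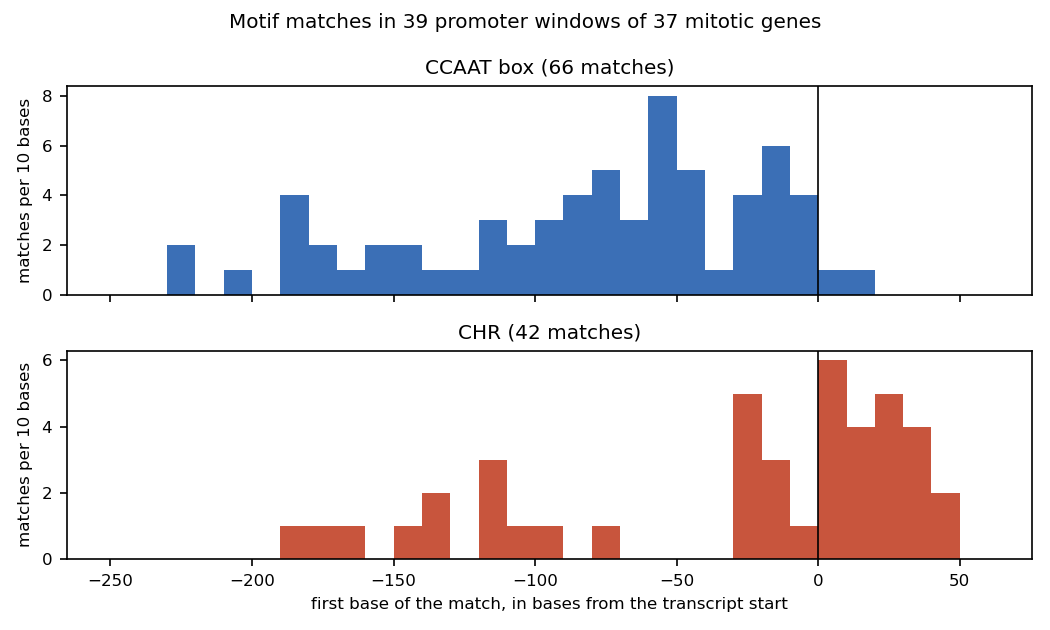
Positions of CCAAT box matches (top, 66 matches) and CHR matches (bottom, 42 matches) in 39 promoter windows of 37 mitotic genes, as counts per 10 bases against the distance in bases of the first base of the match from the transcript start (vertical line). CCAAT matches have a median position of -69 and CHR matches of -1 bases; Ect2 and Prc1 enter with a pair of overlapping windows each.

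In serrated tumors 8 of the 46 genes fell against the AOM tumors and 0 rose, and all 46 had a negative difference. The median log2 difference was -0.72, against 0.04 over all genes, of which 45.2% were negative. The fall was called by limma with Benjamini-Hochberg adjustment over all genes at an adjusted p under 0.05, and 5.76% of all genes (1149 of 19938) were called lower and 3.62% higher by the same rule. All AOM here means the mean of the 2 AOM group means. The genes called were the kinases Plk1, Cdk1 and Aurkb, the Aurora B scaffold Incenp, the centromere histone Cenpa, the checkpoint gene Bub1b, the activator of the anaphase-promoting complex Cdc20, and the DNA topoisomerase Top2a. The group mean hides the spread among the serrated arrays, which was wide. The median SD of these genes was 0.608 among the serrated arrays (n = 3), 0.175 among the K-rasG12D AOM arrays (n = 3) and 0.138 among the LSL AOM arrays (n = 2), while over all genes it was 0.316, 0.168 and 0.164.

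Serrated arrays 1 and 2 were low in nearly all mitotic genes, and serrated array 3 was not. Array 1 lay below every AOM array in 43 of 46 genes and array 2 in 43 of 46, where 33.3% and 25.8% of all genes did so, and neither lay above every AOM array in any of the 46, where 36.1% and 28% of all genes did. Array 3 lay below every AOM array in 9 genes (19.6%, against 22.8% of all genes), within the AOM range in 30 (55.0% of all genes) and above it in 7 (22.2% of all genes). All 3 serrated arrays lay below all AOM arrays in those 9 genes, against 8.93% of all genes, and above them in 0, against 7.24%. The median deviation of the 46 genes from the AOM mean was -1.16 on array 1, -1.0 on array 2 and -0.07 on array 3 on the log2 scale. On the AOM arrays it ran from -0.21 to 0.19. Arrays 1 and 2 were the lowest pair of all 8 arrays in 41 of the 46 genes (89.1%), as they were in 16.8% of all genes. The 5 genes without that order were Ccnb2, Birc5, Spc24, Espl1 and Mki67.

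**Figure D2:**
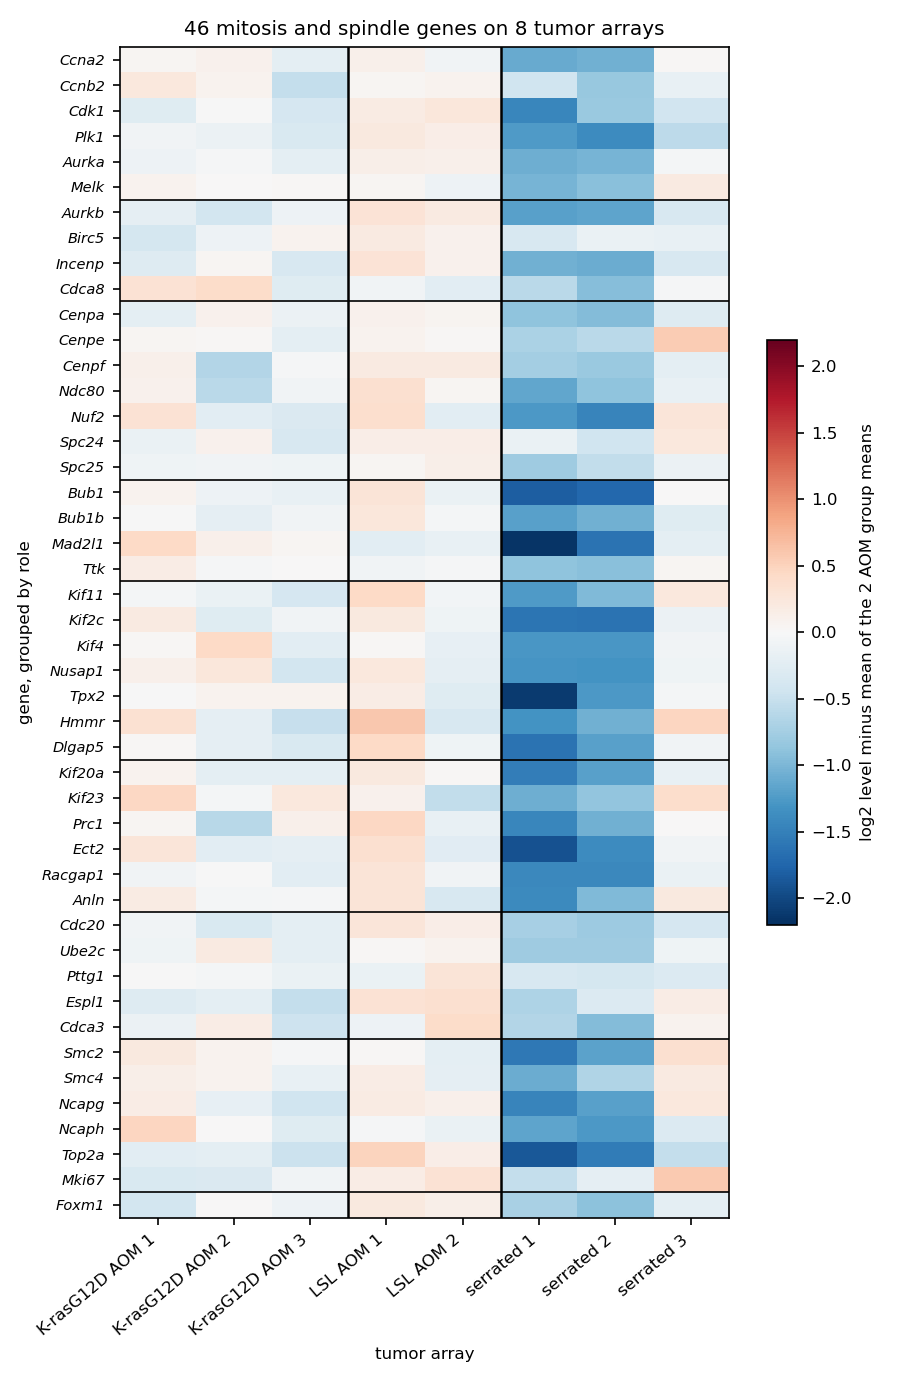
Log2 level of each of the 46 genes (rows, grouped by role between horizontal lines) on each of the 8 tumor arrays (columns), as the difference from the mean of both AOM group means, with blue lower and red higher. Serrated 1 and 2 are blue in nearly every row (medians -1.16 and -1.0), while serrated 3 looks like the AOM arrays (median -0.07).

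The calls changed with the arrays kept. With serrated array 3 left out, 40 genes were called lower, the 8 among them, with a median difference of -1.10, and 13.5% of all genes were called lower. Without serrated array 1 the calls were Plk1 and Top2a, and without array 2 no gene was called (medians -0.53 and -0.57). Without LSL array 1 no gene was called, without LSL array 2 or K-rasG12D array 1 or 2 only Plk1 was, and without K-rasG12D array 3 Plk1 and Top2a were. Quantile normalization ended the call of Cdc20 and added those of Mad2l1, Kif20a and Racgap1. The trend and robust options ended those of Cenpa, Bub1b and Cdc20 and added that of Mad2l1. With all AOM arrays as 1 group Cdk1, Aurkb, Incenp and Cdc20 were not called, and Ncaph was. After centring each array on its median the calls were Plk1 and Top2a, and over all genes 801 were then lower and 768 higher, against 1149 and 722 before. Since a single spread was fitted for the 3 groups, the error and p-value of a gene that varies mostly among serrated arrays can be too small.

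**Figure D3:**
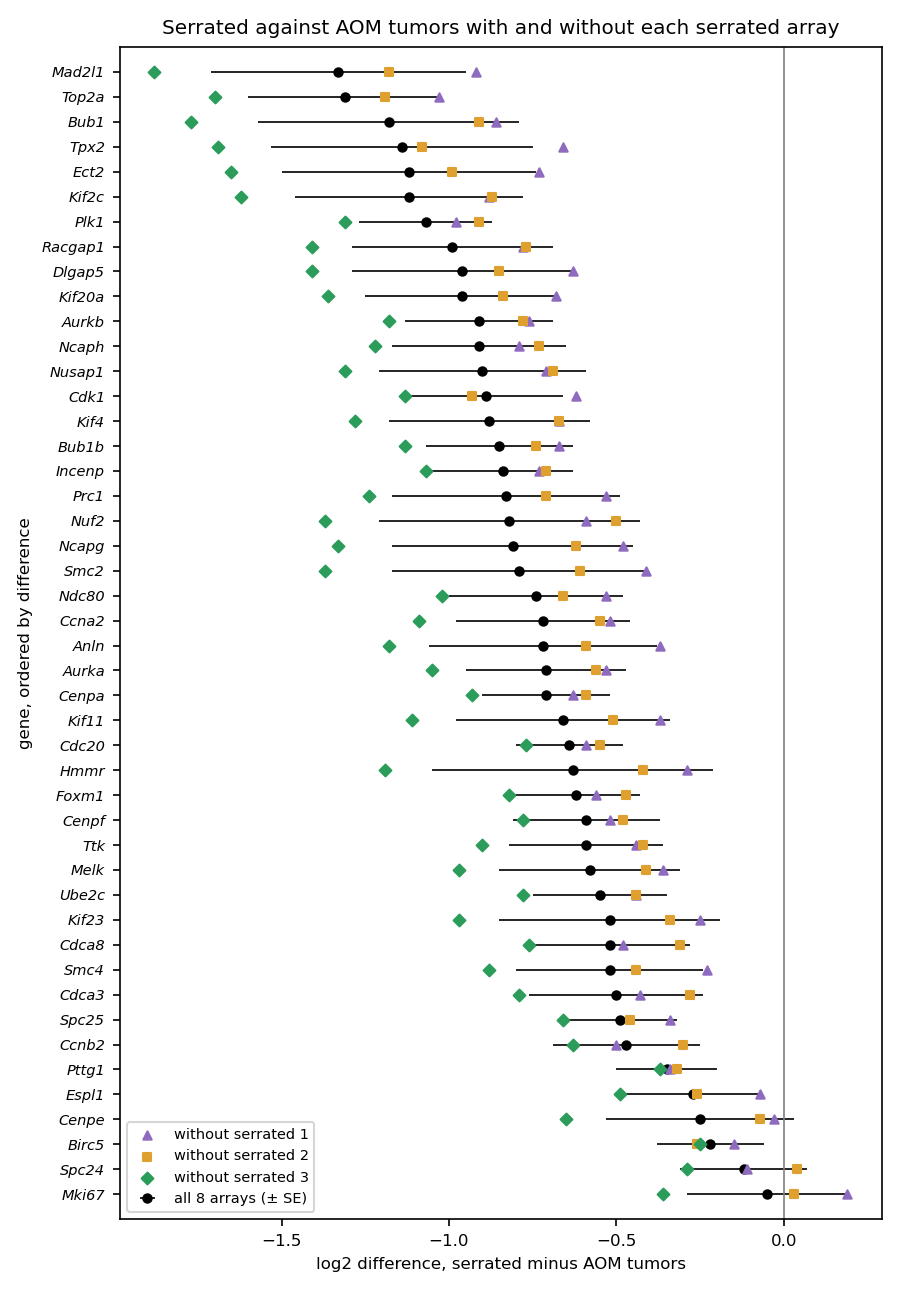
Log2 difference of serrated minus AOM tumors for the 46 genes, ordered by size, with all 8 arrays (black, ± SE) and without serrated array 1 (triangles), 2 (squares) or 3 (diamonds). Leaving out array 3 moves nearly all genes further from 0, to a median of -1.10, and leaving out array 1 or 2 moves most toward 0 (medians -0.53 and -0.57).

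Among the kinases and cyclins that start mitosis, Plk1 and Cdk1 fell, and 4 of 6 did not pass. Plk1, the Polo-like kinase of spindle and centrosome, read 6.17, 6.03 and 6.83 on the serrated arrays, 7.34, 7.28 and 7.06 on the K-rasG12D AOM arrays and 7.62 and 7.55 on the LSL AOM arrays. The groups did not overlap, and LSL arrays were the highest. Its log2 difference was -1.07 ± 0.20 (SE), or 2.09-fold (limma adjusted p = 0.0144), and it did not pass without serrated array 2 or LSL array 1 (adjusted p of 0.0576 to 0.0763). Cdk1, the kinase that triggers mitosis, read 5.42, 6.02 and 6.42 in serrated tumors, 6.58, 6.83 and 6.47 in K-rasG12D AOM tumors and 7.03 and 7.09 in LSL AOM tumors. Here serrated array 3 lay just under the lowest AOM array. Its difference was -0.89 ± 0.23 (adjusted p = 0.0420), and the call held with all arrays or with serrated array 3 left out, but not with any other array left out (0.0580 to 0.129).

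The A-type cyclin Ccna2 read 6.54, 6.59 and 7.67 on the serrated arrays and 7.44 to 7.77 on the AOM arrays, so that array 3 lay inside the AOM range. Its difference of -0.72 ± 0.26 did not pass (adjusted p = 0.131). The B-type cyclin Ccnb2 was among the less clear members, since serrated array 1, at 6.47, lay above K-rasG12D array 3, at 6.38. Its difference was -0.47 ± 0.22 (adjusted p = 0.225). The spindle pole kinase Aurka read 5.12, 5.17 and 6.14 in serrated tumors against 5.98 to 6.32 over AOM arrays (-0.71 ± 0.24, adjusted p = 0.101). Melk, a kinase of proliferating cells, read 4.83, 4.92 and 6.05, with the third value above all AOM arrays, which ended at 5.93 (-0.58 ± 0.27, adjusted p = 0.224).

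FoxM1, the transcription factor that switches on many G2 and mitosis genes, has its own gene in the list. Foxm1 read 4.17, 3.99 and 4.68 in serrated tumors, 4.48, 4.90 and 4.78 in K-rasG12D AOM tumors and 5.11 and 5.02 in LSL AOM tumors. Its difference of -0.62 ± 0.19 did not pass (adjusted p = 0.0830).

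The chromosomal passenger complex places Aurora B on the centromere and later on the midzone, and 2 of its 4 genes fell. Aurkb, the kinase, read 5.39, 5.44 and 6.25 in serrated tumors, 6.40, 6.19 and 6.47 in K-rasG12D AOM tumors and 6.90 and 6.79 in LSL AOM tumors. Its difference was -0.91 ± 0.22 (limma adjusted p = 0.0344). The scaffold Incenp read 5.17, 5.14 and 5.87, against 5.95, 6.27 and 5.87 and against 6.53 and 6.33 in the same order, a difference of -0.84 ± 0.21 (0.0396). In both genes serrated array 3 reached the lowest AOM arrays. Neither gene passed without any single array other than serrated array 3 (adjusted p of 0.0607 to 0.167). Borealin (Cdca8) differed by -0.52 ± 0.24 (0.223), and survivin (Birc5) by -0.22 ± 0.16 (0.421). Birc5 read 5.02, 5.24 and 5.21 on the serrated arrays, all within the 4.99 to 5.57 of the AOM arrays, and was the only member with all 3 of them inside that range.

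Of 7 kinetochore and centromere genes, Cenpa fell, and 6 did not pass, with a median difference of -0.59. Cenpa, the histone that marks the centromere, read 5.55, 5.47 and 6.15 in serrated tumors, 6.23, 6.53 and 6.31 in K-rasG12D AOM tumors and 6.54 and 6.50 in LSL AOM tumors (-0.71 ± 0.19, limma adjusted p = 0.0483). Its call, too, was lost on leaving out any array but serrated array 3 (0.0848 to 0.197). The Ndc80 complex, which grips the spindle fibre, has 4 genes, and they differed among themselves. Nuf2 read 4.13, 3.94 and 5.68 in serrated tumors against 5.09 to 5.77 over AOM arrays, and Ndc80 read 3.59, 3.85 and 4.58 against 4.15 to 5.10. Spc25 read 4.55, 4.79 and 5.20 against 5.23 to 5.46, so its groups did not overlap, by a margin smaller than the SD of 0.10 over the 5 AOM arrays. Spc24 read 4.44, 4.14 and 4.81 against 4.22 to 4.73, with array 3 the highest of all 8. The differences were -0.82, -0.74, -0.49 and -0.12 in the order Nuf2, Ndc80, Spc25 and Spc24 (adjusted p of 0.112 to 0.725). The motor Cenpe read 4.03, 4.12 and 5.27, and the third value again lay above every AOM array, which ended at 4.81. Cenpf, a large coiled-coil protein of kinetochores, differed by -0.59 ± 0.22 (0.137).

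The 4 spindle checkpoint genes had the lowest median difference of the roles with more than 1 gene, -1.01, and 1 of them passed. Bub1b, which encodes BubR1, read 4.88, 5.01 and 5.81 in serrated tumors and 5.88 to 6.33 over AOM arrays, a difference of -0.85 ± 0.22 (limma adjusted p = 0.0493). Its call was lost without any single array other than serrated array 3 (0.0912 to 0.193). Mad2l1, the gene of Mad2, which inhibits Cdc20, had the largest difference of the 46, -1.33 ± 0.38, and did not pass (adjusted p = 0.0611). It was called with quantile normalization, the trend and robust options, array weights or the dimmest 40% of genes left out. It was not called with median centring, the mean of a gene's rows or all AOM arrays as 1 group. It read 5.82, 6.35 and 7.75 in serrated tumors, 8.39, 8.09 and 8.02 in K-rasG12D AOM tumors and 7.73 and 7.80 in LSL AOM tumors. Arrays 1 and 2 were thus far below every AOM array, and array 3 sat between the LSL arrays. The checkpoint kinase Bub1 read 3.87, 3.96 and 5.68, against 5.52 to 5.96 over AOM arrays (-1.18 ± 0.39, 0.0953). On leaving out serrated array 3 the differences of Mad2l1 and Bub1 became -1.88 (adjusted p = 0.00142) and -1.77 (0.00117). Ttk, the kinase Mps1, read 3.54, 3.52 and 4.48 against 4.36 to 4.59 (-0.59 ± 0.23, 0.155).

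None of the 7 spindle motors and assembly genes passed, and in all 7 serrated array 3 lay within the AOM range while arrays 1 and 2 lay below it. Tpx2, which activates Aurora A on the spindle, read 4.35, 5.19 and 6.41 against 6.20 to 6.63 over AOM arrays (-1.14 ± 0.39, limma adjusted p = 0.107). Kif2c, a kinesin that shortens microtubules, read 4.32, 4.30 and 5.80 against 5.66 to 6.13 (-1.12 ± 0.34, 0.0749). Kif11, the kinesin that pushes spindle poles apart, read 4.73, 5.01 and 6.21 against 5.61 to 6.42 (-0.66 ± 0.32, 0.238). The others, the motor Kif4 and the spindle proteins Nusap1, Hmmr and Dlgap5, differed by -0.63 to -0.96. At an unadjusted p under 0.05 limma had 5 of the 7 genes lower, where 3024 of 19938 genes were lower and 1909 higher. All 7 were called without serrated array 3, at adjusted p values from 0.00167 (Kif2c) to 0.0294 (Hmmr).

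The 6 cytokinesis genes followed the same order of arrays, and 0 passed. At an unadjusted p under 0.05 limma had 4 of them lower, as it had 3024 of 19938 genes. Ect2, the exchange factor that switches on RhoA at the cleavage furrow, read 5.32, 5.84 and 7.16 in serrated tumors and 6.97 to 7.58 over AOM arrays (-1.12 ± 0.38, adjusted p = 0.104). Racgap1, its partner in the centralspindlin complex, read 5.50, 5.49 and 6.76 against 6.67 to 7.19 (-0.99 ± 0.30, 0.0721). Kif23, the motor of that complex, read from 5.81 on array 1 to 7.26 on array 3, against 6.34 to 7.32 (-0.52 ± 0.33, 0.374). Kif20a, Prc1 and Anln, a midzone motor, a microtubule bundler and a scaffold of the furrow, differed by -0.96, -0.83 and -0.72 (0.0725 to 0.233). All 6 were called without serrated array 3, at adjusted p values from 0.00209 (Racgap1) to 0.0200 (Kif23).

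Of 5 genes of anaphase and protein destruction, Cdc20 fell. It read 5.73, 5.66 and 6.09 in serrated tumors, 6.38, 6.12 and 6.25 in K-rasG12D AOM tumors and 6.73 and 6.62 in LSL AOM tumors. The difference was -0.64 ± 0.16 (limma adjusted p = 0.0383), and it was lost without any single array other than serrated array 3 (0.0642 to 0.163). Ube2c, the ubiquitin-conjugating enzyme of the anaphase-promoting complex, differed by -0.55 ± 0.20 (0.128). Securin (Pttg1) varied little among the serrated arrays and read 5.02, 4.97 and 5.07 in serrated tumors and 5.22 to 5.64 in AOM tumors, without overlap (-0.35 ± 0.15, 0.189). Separase (Espl1), the protease that cuts cohesin, read 3.95, 4.34 and 4.80 in serrated tumors, 4.35, 4.42 and 4.11 in K-rasG12D AOM tumors and 4.95 and 4.98 in LSL AOM tumors. The serrated arrays therefore spanned the K-rasG12D arrays and stayed below the LSL arrays (-0.27 ± 0.20, 0.440). Cdca3, a trigger of mitotic entry, differed by -0.50 ± 0.26 (0.279).

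Among genes of chromosome structure Top2a fell. On serrated array 3 none of the 6 genes lay within the AOM range, 4 being above it and 2 below. Of all genes 55.0% lay within it on that array, 22.2% above and 22.8% below. Most of the 6 were at its edge: Smc4 read 6.70 and Ncapg 5.83 against highest AOM arrays of 6.67 and 5.78. Top2a read 7.20 and Ncaph 5.81 against lowest AOM arrays of 7.24 and 5.85. Top2a, which untangles DNA before anaphase, read 5.85, 6.17 and 7.20 in serrated tumors, 7.48, 7.49 and 7.24 in K-rasG12D AOM tumors and 8.20 and 7.85 in LSL AOM tumors. The difference was -1.31 ± 0.29, or 2.47-fold (limma adjusted p = 0.0255), and it did not pass without K-rasG12D array 1 or 2, serrated array 2 or either LSL array (0.0614 to 0.116). Its other row, at 1.35 to 2.09 on all arrays, differed by -0.15. The condensin genes Smc2, Smc4 and Ncapg, whose proteins fold chromosomes, were highest of all 8 arrays on serrated array 3 and low on arrays 1 and 2. Smc2 read 4.37, 4.77 and 6.29 against 5.73 to 6.16 over AOM arrays (-0.79 ± 0.38, adjusted p = 0.235), and Ncapg read 4.14, 4.41 and 5.83 against 5.17 to 5.78 (-0.81 ± 0.36, 0.202). A further condensin gene, Ncaph, was low on serrated arrays 1 and 2 and just under the lowest AOM array on array 3. It read 4.95, 4.84 and 5.81 against 5.85 to 6.59 (-0.91 ± 0.26, 0.0629). Mki67, the gene of the proliferation antigen Ki-67, read 6.44, 6.77 and 7.54 in serrated tumors, 6.63, 6.64 and 6.90 in K-rasG12D AOM tumors and 7.12 and 7.28 in LSL AOM tumors. Its difference of -0.05 ± 0.24 (0.922) had a sign that other settings turned, as with quantile normalization (0.08). Serrated array 3 thus held the highest Mki67 level of the 8 arrays.

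**Figure D4:**
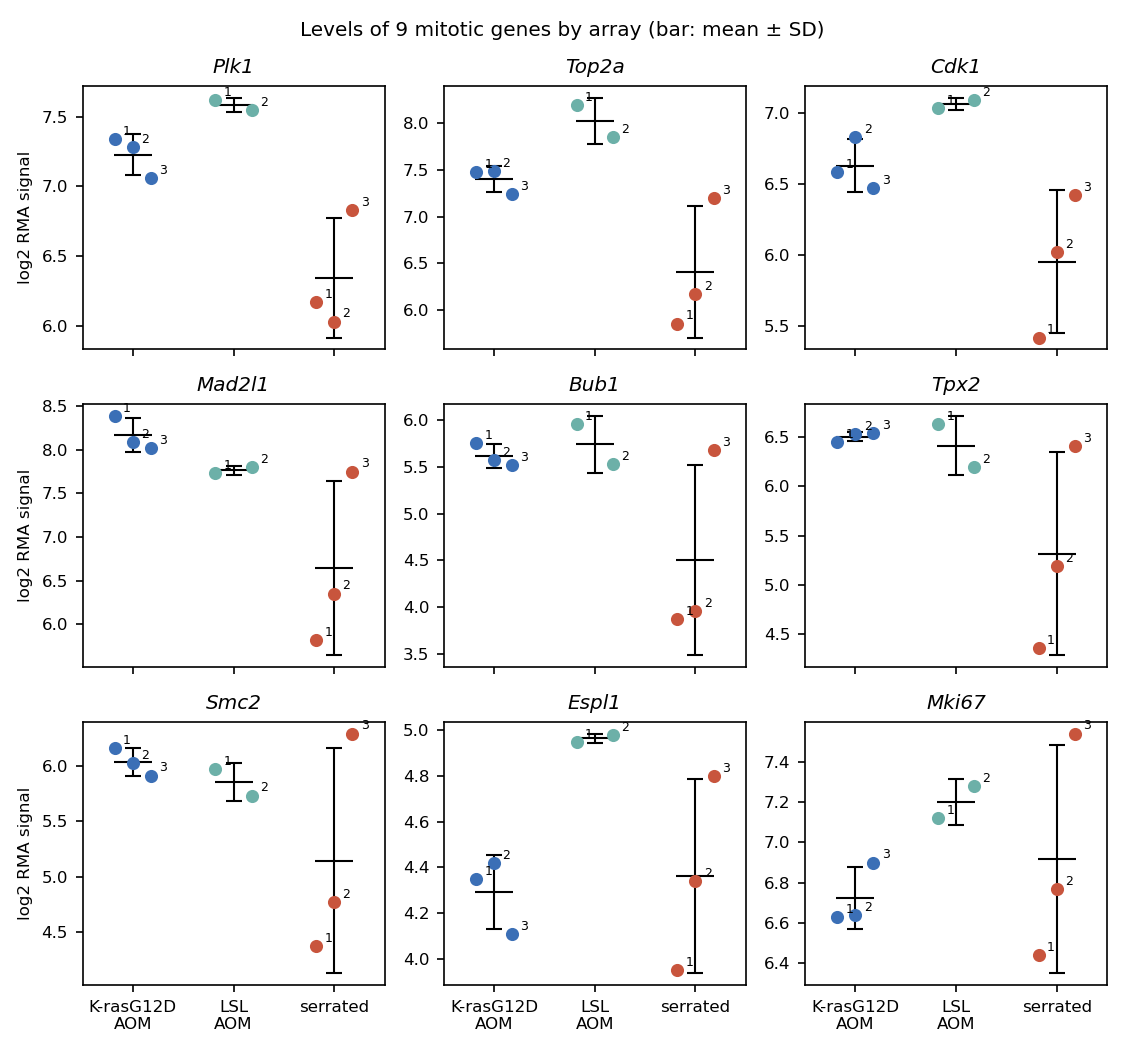
Log2 signals of 9 mitotic genes on each array, by tumor group, with the mean and SD of each group as bars and the array number beside each point; each panel has its own vertical scale, which does not start at 0. In Mad2l1, Bub1 and Tpx2 serrated 3 sits among the AOM arrays while serrated 1 and 2 lie far below, and in Mki67 and Smc2 serrated 3 is the highest point.

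The serrated tumors were also set against each AOM group alone, in comparisons that share the serrated arrays. Whether the differences themselves differ is the comparison of the AOM groups, given next. Against K-rasG12D AOM tumors 0 of 46 genes were called by limma, 22 were lower and 0 higher at an unadjusted p under 0.05, where 2781 of 19938 genes were lower and 1563 higher. The median difference was -0.66. Of all genes 3.99% were called lower and 2.46% higher there. Plk1 (-0.89 ± 0.22, adjusted p = 0.0514) and Mad2l1 (-1.53 ± 0.42, 0.0650) came closest. With serrated array 3 left out, 34 genes were called, and 11.9% of all genes were called lower. Over all genes 796 were lower and 490 higher, against 1008 and 941 with quantile normalization and 511 and 563 with median centring. Against LSL AOM tumors 4 of 46 were called lower, against 3.40% of all genes lower and 2.31% higher, and the median difference was -0.82. They were Plk1 (-1.25 ± 0.25, 0.0252), Top2a (-1.62 ± 0.36, 0.0341), Cdc20 (-0.85 ± 0.19, 0.0393) and Aurkb (-1.15 ± 0.27, 0.0421). None of the 4 was called without serrated array 2 or either LSL array, while 38 genes were without serrated array 3, where 9.02% of all genes were called lower. Only Plk1 was called without K-rasG12D array 2 or 3, and no gene was without K-rasG12D array 1.

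Between the AOM groups 0 of the 46 genes and 0 of all genes (0%) were called by limma, and at an unadjusted p under 0.05 1 member was lower in K-rasG12D AOM tumors. That gene was Espl1 (-0.67 ± 0.25, unadjusted p = 0.0256, adjusted p = 0.504). Of all genes 798 were lower and 868 higher at that unadjusted p. The K-rasG12D arrays nonetheless lay below both LSL arrays in 14 of the 46 genes (30.4%), against 15.7% of all genes. They were the kinases Cdk1, Plk1, Aurka and Aurkb, the passenger genes Birc5 and Incenp, the kinetochore genes Cenpf, Spc24 and Spc25, the anaphase genes Cdc20 and Espl1, and Top2a, Mki67 and Foxm1. The sizes were small: Cdc20 differed by -0.42 ± 0.19, Aurkb by -0.49 ± 0.27, Top2a by -0.62 ± 0.36 and Mki67 by -0.48 ± 0.30. The reverse order held for Mad2l1 (0.40 ± 0.47) and Ttk (0.10 ± 0.29), or 4.35% of the 46 genes, against 16.4% of all genes. The median difference over the 46 genes was -0.19, against 0.01 over all genes.

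Other genes of mitosis and of the cell cycle mostly showed the same order of arrays. Serrated array 1 lay below every AOM array in 87.1% of other mitosis genes and 86.7% of G1/S and DNA replication genes, and serrated array 2 in 79.6% and 88.9%. These shares compare with 93.5% of the 46 genes on each array, and with 33.3% and 25.8% of all genes on arrays 1 and 2. Arrays 1 and 2 were the lowest pair of all 8 in 71.0% and 73.3% of these lists, against 16.8% of all genes. Of 93 other measured mitosis genes 12 fell and none rose in serrated against all AOM tumors, while 81 missed the threshold, and the median was -0.50. That is 12.9% lower, against 5.76% of all genes. Those with the smallest adjusted p were Cenpm, a centromere protein (-1.16 ± 0.17, limma adjusted p = 0.00539), the anaphase-promoting complex subunits Anapc5 (-0.82 ± 0.14, 0.00938) and Cdc16 (-1.19 ± 0.22, 0.0126), and the kinesin Kif18b (-1.05 ± 0.19, 0.0118). In these 4 genes serrated array 3 was low as well: Cenpm read 4.50, 4.80 and 4.93 against 5.64 to 6.15 over AOM arrays. Picking genes by adjusted p favours those low on all 3 serrated arrays. Over the 93 genes, array 3 lay below every AOM array in 18.3%, against 22.8% of all genes. Cenpm kept its call without any single array, Anapc5 lost it without serrated array 2 (0.0548), and Cdc16 and Kif18b without serrated array 2 or LSL array 1 (0.0524 to 0.0653). Leaving out serrated array 3 gave 55 calls among the 93 (59.1%, against 13.5% of all genes), leaving out serrated array 2 gave 1, and leaving out any other array gave 3 to 9.

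Of 45 G1/S and DNA replication genes 12 fell and none rose, while 33 missed the threshold, and the median was -0.67. That is 26.7% lower, against 5.76% of all genes. The G1 kinase Cdk4 fell by 1.94 ± 0.25 on the log2 scale (limma adjusted p = 0.00285) and its cyclin Ccnd1 by 1.47 ± 0.28 (0.0148). Cdk4 read 7.69, 7.32 and 8.35 in serrated tumors and 9.21 to 9.90 in AOM tumors, and its call held without any single array. The replication genes Rfc3 (-1.40 ± 0.27, 0.0161) and Mcm7 (-1.11 ± 0.22, 0.0162) lost theirs without serrated array 2 or LSL array 2, and Ccnd1 without those or LSL array 1 (0.0544 to 0.0793). Serrated array 3 lay below every AOM array in 16 of these 45 genes (35.6%), in 9 of the 46 mitotic genes (19.6%) and in 22.8% of all genes. Leaving out serrated array 3 gave 30 calls among the 45 (66.7%, against 13.5% of all genes), leaving out serrated array 2 or LSL array 2 gave 1 each, and leaving out any other array gave 3 to 10.

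**Figure D5:**
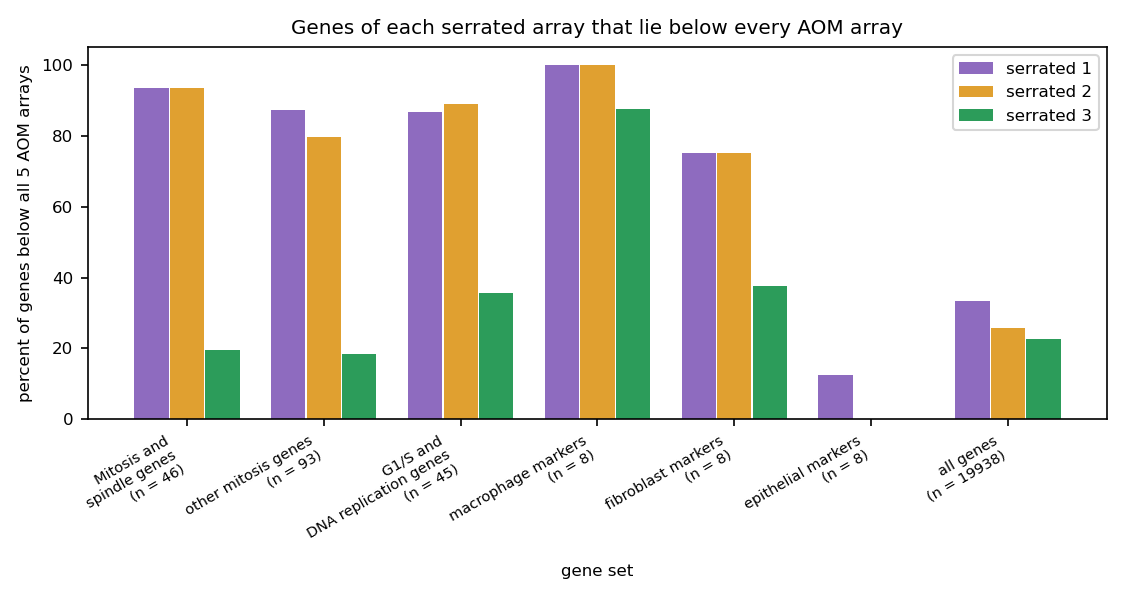
Percent of genes of each set that lie below all 5 AOM arrays on serrated array 1, 2 or 3, with the number of genes under each set; the bars start at 0. Mitotic genes stand at 93.5%, 93.5% and 19.6%, against 33.3%, 25.8% and 22.8% of all genes.

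Markers of other cell types moved with the comparison in part. Of 8 macrophage markers 5 fell in serrated against all AOM tumors, where 5.76% of all genes were called lower. Their mean levels were 4.76, 4.73 and 5.15 on the serrated arrays and 5.56 to 6.20 on the AOM arrays. Of 8 fibroblast markers 3, all collagens, fell, while 6 of the 8 differences were negative and 2 positive, up to 0.32. Mean levels of the fibroblast markers were 6.13, 5.79 and 6.70 against 6.59 to 7.57. Both lists thus had serrated array 3 above arrays 1 and 2, as the mitotic genes did. On array 3, however, 7 of the 8 macrophage markers still lay below every AOM array (87.5%, against 22.8% of all genes). Without serrated array 2 none of these 8 calls held. Of the macrophage markers 1 was called without LSL array 1 and 2 were without K-rasG12D array 2 or 3 or serrated array 1. Of the fibroblast markers 1 was called without LSL array 1 or K-rasG12D array 2, 2 were without K-rasG12D array 3 or serrated array 1, and 5 were without serrated array 3. The 8 epithelial markers had mean levels of 9.66, 9.69 and 9.77 against 9.10 to 9.39. Of them Cdx2, a transcription factor of intestinal epithelium, rose by 2.56 ± 0.27 (limma adjusted p = 0.00130), and 7 did not pass. Epcam differed by 0.05 ± 0.16, Cdh1 by -0.01 ± 0.15, Krt8 by 0.32 ± 0.14, Krt18 by 0.21 ± 0.21, Krt19 by 0.04 ± 0.19, Vil1 by 0.60 ± 0.19 and Cdx1 by 0.17 ± 0.19, and the signs of Epcam, Cdh1 and Krt19 turned with the setting. No lymphocyte marker (of 7), smooth muscle marker (of 8) or endothelial marker (of 6) passed. At an unadjusted p under 0.05 limma had 1 lymphocyte marker higher and smooth muscle markers 1 lower and 1 higher. Of all 19938 genes 3024 were lower and 1909 higher at that p. Mean levels of smooth muscle markers were 6.21, 5.25 and 5.06 on the serrated arrays and 4.67 to 5.73 on the AOM arrays, those of lymphocyte markers 3.71, 3.31 and 3.74 against 2.84 to 3.79, and those of endothelial markers 4.49, 4.34 and 5.45 against 4.21 to 5.07. The part of cell makeup in the differences of the mitotic genes was not tested.

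The 29 genes with a CHR match had a median difference of -0.71 between serrated and all AOM tumors, with 6 called lower, and the 8 without a match had a median of -0.70, with 0 called. The 9 genes with no window had a median of -0.84, with 2 called, Aurkb and Incenp, and 5.76% of all genes were called lower. Mad2l1, with neither element in its window, had the largest difference of all 46, and Mki67, with 2 CHR and 3 CCAAT matches, the smallest. Other genes went the other way. Top2a, with 4 CHR and 6 CCAAT matches, differed by -1.31, and Birc5 and Pttg1, with neither element, by -0.22 and -0.35. A link between matches and differences was not tested. In Bub1, whose window holds 1 CHR and 2 CCAAT matches, the difference was -1.18.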

How the data were processed

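The deposited table holds log2 signals of 35557 probe sets on 8 arrays, made by the authors with GCOS and RMA (robust multi-array average), as named in the submitters' processing notes, with no version or setting stated. A platform annotation gave exactly 1 gene symbol for 21789 probe sets, several for 1621 and none for 12147. Each of 19938 genes was read from its brightest row by the mean of the 8 arrays, with no filter on dim genes. The 3 group means were fitted to all 8 arrays with limma 3.58.1 (R 4.3.3, 5 residual degrees of freedom, trend and robust off), and p-values were adjusted by Benjamini-Hochberg over all genes of a comparison. Tested on simulated data for serrated against all AOM tumors, the fit over 19938 genes recovered 44.6% of 2-fold and 88.4% of 4-fold changes. The simulation gave each gene the same independent spread in all 3 groups. The 46 genes spread more among serrated arrays (median SD 0.608) than among K-rasG12D AOM (0.175) or LSL AOM arrays (0.138), so these rates need not hold for them. An error beside a difference is its standard error (SE). The titles of the 8 samples carry different numbers, which may be animal identifiers, but nothing in the labels says that replicates are separate animals. The p-values thus reflect only how these samples spread, which may in part be technical, and the number of arrays sets the precision. Each array was left out in turn, and a filter on the dimmest 40% of genes, the mean of a gene's rows, quantile normalization, median centring, trend and robust options, array weights and other samples in the fit were tried. The members and all lists were chosen with earlier results of these data known. All members were named, with up to 4 called genes each way from the other mitosis and the replication lists, all called markers (those of serrated against all AOM tumors are described), the epithelial markers and Cdkn2a. From the comparisons with a single AOM group, list genes other than members are not described.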

Additional observations from a re-analysis of the deposited data

How the results depend on the processing

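With all 8 arrays, limma called 8, 0, 4 and 0 members lower in serrated against all AOM, serrated against K-rasG12D AOM, serrated against LSL AOM and K-rasG12D AOM against LSL AOM tumors. Over the arrays left out in turn the counts ran from 0 to 40, from 0 to 34 and from 0 to 38 in the first 3, and stayed at 0 in the last. Leaving out the dimmest 40% of genes gave 13 and 2 in the first pair, where 11.4% and 8.32% of the genes left were called lower, and array weights gave 41, 39 and 34 in the first 3, where 16.4%, 16.6% and 10.3% of all genes were lower. The weights were estimated gene by gene, since the default method did not converge, and serrated array 2 got a weight of 3.15 against 0.242 and 0.38 for the other serrated arrays. Median centring gave 2 in the first and 2 in the third, quantile normalization 10 in the first and 3 in the second, the trend and robust options 6 and 1, all AOM arrays as 1 group 5 in the first, and the arrays compared alone 0 in the third. No member was called higher under any setting in any comparison. Fewer arrays or fewer genes entered some of these fits; otherwise the cause was not tested. Against all AOM tumors the difference of Mki67 turned to 0.08 with quantile normalization, 0.01 with median centring and 0.00 with AOM arrays as 1 group, and ran from -0.36 to 0.19 over left-out arrays, as that of Spc24 did from -0.29 to 0.04. Epcam turned to -0.06 with array weights, Krt19 to -0.04 with quantile normalization, and Cdh1 to 0.05 with median centring, 0.02 with array weights and 0.02 with AOM arrays as 1 group. Over left-out arrays they ran from -0.03 to 0.13, from -0.13 to 0.23 and from -0.11 to 0.09. None of these 5 genes was called in serrated against all AOM tumors under any of these settings. The mean level of 4 members over the serrated arrays lay below the lowest array median, where folds are uncertain. No paired analysis was made, since the groups differ in genotype and the labels name no pairs.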
